A study of Mus musculus with 9 samples.

Results

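The interferon-stimulated genes described here are a list of 44 genes looked up by symbol in a table of 30519 transcripts from mouse liver. All 44 were in the table, each with 1 transcript, and 41 of them averaged 1 or more over the 9 libraries and were tested. Mx1, Oas2 and Oas3 fell below that level. The libraries were made from polyA RNA of the uncrosslinked portion of livers of mice 6 weeks of age. The KO group held 4 animals labelled miR-122 KO (KO 1 female, KO 2 to KO 4 male), and the WT group held 5 floxed littermates (WT 1 to WT 3 female, WT 4 and WT 5 male). The sources used here give no Cre driver, no cell type of the deletion and no strain. Each genotype is taken from the labels alone, since miR-122 itself was not analysed here. The series set these genotypes side by side to find transcripts that differ between livers with and without miR-122, the main microRNA of hepatocytes.

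Interferons are secreted proteins, and those of type I and type III are released by cells that sense viral nucleic acids. Type I and type III interferons signal through receptor-bound Janus kinases to a complex that contains Stat2 and Irf9 and binds the interferon-stimulated response element, and genes induced by interferon gamma often carry the gamma-activated site. The genes so induced encode sensors, transcription factors and proteins that block steps of viral growth, and many of them are also expressed at a low level in uninfected liver, in hepatocytes as well as in macrophages.

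The promoters of the list carry these elements often, and 5 of them are shown, all with a match as defined below. Bst2 and Rsad2, lower in KO, and Irf8, higher, had the smallest adjusted p of the called genes with a promoter sequence. Isg15 and Ifit1 did not pass the test and were added for contrast. A second promoter of Irf8 and that of Oasl2, a higher gene, held no match and are not shown. Each window holds 300 bases, from 250 before to 50 after the RefSeq start (GRCm38.p6), printed along the strand of the gene. Capitals mark every match, on either strand, to the core of the interferon-stimulated response element (GAAA, any 2 bases, GAAA) or of the gamma-activated site (TTC, any 3 bases, GAA), and positions are counted from the start. In Bst2 (chr8:71537423-71537722, minus strand) a gamma-activated core at -136 runs into 2 overlapping response element cores at -130 and -124. Irf8 (chr8:120736108-120736407, plus strand) has gamma-activated cores at -171 and -153 and no response element core. Rsad2 (chr12:26456403-26456702, minus strand) has 1 response element core at -120, on the opposite strand. Isg15 (chr4:156200769-156201068, minus strand) has 3 overlapping response element cores at -78, -72 and -66, and Ifit1 (chr19:34640639-34640938, plus strand) has cores at -104 and -85, on the opposite strand.
Bst2: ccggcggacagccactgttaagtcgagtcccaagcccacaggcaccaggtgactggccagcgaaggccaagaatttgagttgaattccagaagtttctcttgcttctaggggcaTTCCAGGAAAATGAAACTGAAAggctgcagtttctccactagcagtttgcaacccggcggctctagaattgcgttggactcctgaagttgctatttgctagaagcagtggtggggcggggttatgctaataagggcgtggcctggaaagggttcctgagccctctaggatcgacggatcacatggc
Irf8: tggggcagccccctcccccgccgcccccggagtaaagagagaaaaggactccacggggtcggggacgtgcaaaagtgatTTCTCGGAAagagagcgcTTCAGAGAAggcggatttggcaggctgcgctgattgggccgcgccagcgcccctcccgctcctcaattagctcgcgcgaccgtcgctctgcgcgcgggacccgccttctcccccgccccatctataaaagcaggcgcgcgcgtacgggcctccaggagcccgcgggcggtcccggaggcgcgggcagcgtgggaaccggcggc
Rsad2: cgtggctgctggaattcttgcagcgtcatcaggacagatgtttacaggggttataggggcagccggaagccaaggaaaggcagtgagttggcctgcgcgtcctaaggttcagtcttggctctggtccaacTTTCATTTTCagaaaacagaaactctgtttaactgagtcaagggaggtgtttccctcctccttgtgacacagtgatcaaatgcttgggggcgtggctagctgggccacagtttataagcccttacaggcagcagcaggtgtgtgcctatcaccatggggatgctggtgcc
Isg15: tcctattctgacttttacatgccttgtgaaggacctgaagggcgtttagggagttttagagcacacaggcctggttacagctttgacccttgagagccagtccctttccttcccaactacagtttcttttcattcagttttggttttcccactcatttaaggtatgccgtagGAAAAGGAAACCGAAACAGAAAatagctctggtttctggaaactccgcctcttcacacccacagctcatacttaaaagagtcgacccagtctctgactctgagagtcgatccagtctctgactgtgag
Ifit1: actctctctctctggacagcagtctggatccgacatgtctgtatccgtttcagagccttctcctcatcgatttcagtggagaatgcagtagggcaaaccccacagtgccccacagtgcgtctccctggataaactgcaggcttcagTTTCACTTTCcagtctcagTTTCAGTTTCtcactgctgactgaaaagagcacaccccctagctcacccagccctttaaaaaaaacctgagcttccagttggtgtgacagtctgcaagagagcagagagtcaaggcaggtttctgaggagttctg

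A window was found for 33 of the 44 genes. The response element core was present in 19 of these 33 (57.6%), against 3.99% of all 27025 genes with a window. The gamma-activated core was present in 11 of 33 (33.3%), against 9.55% of all genes. Both occurred in 6 genes, counting cores that overlap each other, and neither in 9. The response element core was found in 2 of the 6 higher genes with a window, in 2 of the 3 lower genes and in 14 of the 23 genes not called (60.9%). For the gamma-activated core the counts were 4 of 6, 1 of 3 and 6 of 23. A match is a run of letters, and binding was not measured.

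All values are normalised abundances, which are corrected for transcript length and can be compared between genes. Folds are ratios of group means, and log2 fold changes are KO minus WT of log2(value + 1), which understates the change of low transcripts. Reads on the listed transcripts, recovered from the steps between low values, came to 15.6 to 22.3 M in KO and 12.4 to 19.9 M in WT libraries, lowest in WT 4 and WT 5. The deposited columns do not sum to the same total: 0.711 to 0.869 M in KO and 0.873 to 1.17 M in WT. WT 3 is labelled female while its column name says male. The Y-linked gene Ddx3y stood at 0.0422 in it, against 13.2 or more in every male, and the label was kept.

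The list did not move as a block. Of the 41 tested genes 8 were higher and 6 lower in KO (limma, Benjamini-Hochberg adjusted p of at most 0.05), and 27 were not called. The called share of 34.1% stood beside 35.9% of all tested transcripts, of which 21.4% were higher and 14.5% lower, and the median log2 fold change was 0.04 in the list and 0.03 over all transcripts. Isg20, Ifi27l2a, Zbp1, Irf8, Oas1g, Oas1a, Oasl2 and Ifit2 were the higher genes, and 7 of these 8 were at least 2-fold higher. Rsad2, Mx2, Iigp1, Bst2, Ifi27 and Irf9 were the lower genes, with Rsad2 alone at least 2-fold lower. KO and WT values did not overlap for 13 genes, 8 with KO above and 5 with KO below. Non-overlap was seen for 31.1% of all tested transcripts, 19% with KO above and 12.1% with KO below. The 27 genes not called had log2 fold changes between -0.63 and 0.56, and 20 of them lay within 0.3 of 0. In the authors' deposited table, 7 of the 44 were higher and 5 lower at a q of at most 0.05, beside 25.2% of all its transcripts with a q (13.6% higher, 11.6% lower).

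**Figure D1:**
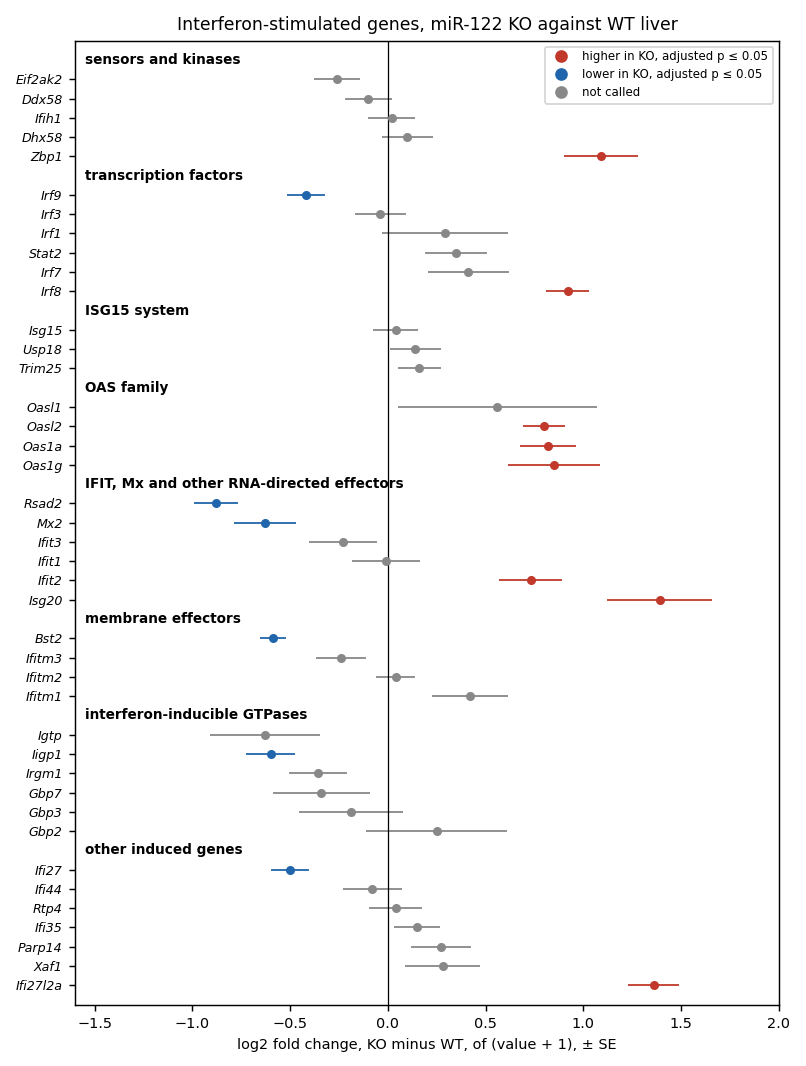
Log2 fold change of the 41 tested genes by role (KO minus WT of log2 of the normalised abundance + 1; points are estimates and bars ± SE from limma, 4 KO and 5 WT livers). Red points are the 8 genes called higher, blue the 6 called lower and grey the 27 not called, and called genes of both directions occur among the transcription factors, the RNA-directed effectors and the other induced genes.

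The balance of directions depended on the scale. When every library was scaled to the same total, 48.1% of all tested transcripts were called, 45.4% higher and 2.72% lower, and their median log2 fold change went from 0.03 to 0.37. On that scale 19 of the 41 genes were higher and 1 was lower, with a median of 0.43. All 8 higher genes were called again in the same direction. Of the 6 lower genes only Rsad2 was called again (log2 fold change -0.56, adjusted p = 0.012), while Irf9, Mx2, Bst2, Iigp1 and Ifi27 kept a negative sign between -0.32 and -0.05 without passing the test. Genes called only on that scale were Dhx58, Irf7, Stat2, Isg15, Usp18, Trim25, Ifitm1, Ifitm2, Ifi35, Xaf1 and Parp14, all 11 higher. Directions below are on the deposited scale.

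**Figure D2:**
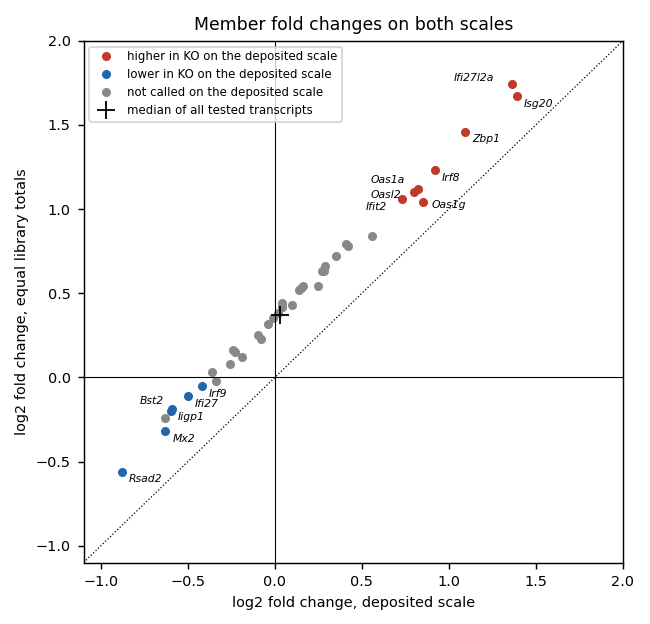
Log2 fold changes (KO minus WT) of the 41 tested genes on the deposited scale (horizontal axis) and with equal library totals (vertical axis), 1 point per gene, coloured by the call on the deposited scale; the dotted line marks equality and the cross the median of all tested transcripts (0.03 and 0.37). The points lie above the line, the 8 higher genes stay far above 0 on both axes, and of the 6 lower genes Rsad2 stays farthest below 0.

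The transcripts of other cell types differed between the groups as well. Of the 12 markers of Kupffer cells and macrophages all 12 were tested and higher in KO, with a summed level of 660 to 770 in KO and 328 to 428 in WT. Lyz2, C1qa and C1qb had the smallest adjusted p among them (3.23e-06, 1.53e-05 and 5.64e-05 by limma). Recruited monocyte markers summed to 36.0 to 52.2 against 4.53 to 7.94 (4 of 6 tested, all 4 higher, with Cd14 at 29.6 ± 6.0 against 2.94 ± 0.542). Neutrophil markers summed to 59.1 to 129 against 11.9 to 66.0 (4 of 6 tested, 3 higher), dendritic cell markers to 4.21 to 5.87 against 2.10 to 3.65 (1 of 8 tested, higher) and T and NK cell markers to 6.57 to 11.9 against 4.37 to 7.26 (1 of 12 tested, higher). Cholangiocyte and progenitor markers summed to 562 to 937 against 33.1 to 59.5 (5 of 6 tested, all 5 higher) and stellate cell markers to 232 to 277 against 113 to 205 (6 tested, 5 higher). B cell markers (1 of 4 tested, not called) summed to 2.05 to 3.26 against 1.77 to 2.95, and of 6 sinusoidal endothelial markers only Lyve1 was called, lower. Of the 8 hepatocyte markers, which stood at 58000 to 73100 in sum in KO and 51900 to 116000 in WT, Tat was higher and Apoa1 lower. Single genes made up most of several sums. Spp1 of the cholangiocyte and progenitor markers stood at 547 to 918 in KO and 31.3 to 57.3 in WT. Dcn of the stellate cell markers, not called, stood at 143 to 196 and 88.0 to 174. Alb of the hepatocyte markers, also not called, stood at 37900 to 54100 and 29500 to 90000. Cd14 made up most of the monocyte sum in KO. No marker was at 0 in every library. Several were at 0 in some libraries, and those named here are examples. The neutrophil marker Ly6g was at 0 in all libraries but KO 4 and WT 4. Siglech of plasmacytoid dendritic cells was at 0 in KO 1 and KO 3, Cd8a in KO 1 and KO 2, and Ncr1 in KO 2 and WT 3. Markers with higher KO means also had zeros in WT: Flt3 in WT 1, WT 3, WT 4 and WT 5, Batf3 in WT 3, and Cldn4 in WT 3 and WT 5. In bulk tissue fewer cells of a type and less RNA per cell cannot be told apart, and the part of these cell types in the results below was not tested.

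Among the sensors and kinases 1 of 5 genes changed. Zbp1, which binds nucleic acids in the Z form and can start necroptosis, stood at 22.1, 18, 20.6 and 18.1 in KO 1 to KO 4 and at 10.8, 11.2, 9.62, 5.12 and 8.09 in WT 1 to WT 5. Every KO liver exceeded every WT liver, by 2.2-fold in the means (log2 fold change 1.09, SE 0.191, adjusted p = 0.00191). Its transcript (ENSMUST00000109116, 4 exons, chromosome 2, 173213735 to 173218910, minus strand, GRCm38) is protein coding. The 3 cytosolic RNA helicases were not called: Ddx58 (RIG-I) had a log2 fold change of -0.1 ± 0.121 (SE), Ifih1 (MDA5) of 0.02 ± 0.12 and Dhx58 (LGP2) of 0.1 ± 0.132. Eif2ak2 (PKR), the kinase that halts translation on double-stranded RNA, stood at 5.72 ± 0.962 in KO and 7.04 ± 0.869 in WT (SD, adjusted p = 0.111). Differences between Zbp1 and the other sensors were not tested.

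Of the 6 transcription factors 1 was higher and 1 was lower. Irf8, a factor that shapes macrophages and dendritic cells, read 4.55, 4.75, 5.79 and 4.73 in KO 1 to KO 4 and 2.42, 2.42, 1.57, 2.14 and 2.2 in WT 1 to WT 5. The groups did not overlap, and the means differed 2.3-fold (log2 fold change 0.92, SE 0.11, limma adjusted p = 0.000224). Its transcript spans chromosome 8, 120736358 to 120756694, with 9 exons on the plus strand. The macrophage and monocyte markers given above were also higher in KO, and a link between these and Irf8 was not tested. Irf9, the DNA-binding part of the complex that type I interferon activates, read 11.4, 8.56, 8.47 and 9.15 in KO and 12.6, 12.8, 12.3, 12.0 and 14.6 in WT. All KO values lay below all WT values, the KO female KO 1 being nearest, and the WT mean was 1.37-fold higher (log2 fold change -0.42, SE 0.098, adjusted p = 0.00862). In the authors' deposited table the q of Irf9 was 0.0507, just past 0.05.

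Stat2, the partner of Irf9, was not called. It stood at 13.9 ± 2.16 in KO and 10.8 ± 2.53 in WT (log2 fold change 0.35, limma adjusted p = 0.117), and WT 5 at 14.8 overlapped the KO range. Without WT 5 Stat2 was called (0.46, adjusted p = 0.0207). Irf7, which amplifies type I interferon production, stood at 16.4 ± 3.19 against 12.3 ± 3.57 (0.41, adjusted p = 0.148). Irf1 varied widely within both groups, between 9.75 and 23.4 in KO and between 6.2 and 16.2 in WT, with a log2 fold change of 0.29 ± 0.322 (SE). Irf3, the constitutive factor that the sensors activate, had a log2 fold change of -0.04 ± 0.131, and its transcript identifier was not found in GENCODE M21.

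None of the 3 genes of the ISG15 system was called. Trim25, a ubiquitin ligase that also acts on RIG-I, had the highest mean of these and read 19.9, 22.9, 26.5 and 21.2 in KO 1 to KO 4 and 21.9, 19.3, 17.3, 23.5 and 18.7 in WT 1 to WT 5. The groups overlapped (log2 fold change 0.16, SE 0.111, limma adjusted p = 0.297). Isg15, the ubiquitin-like modifier itself, stood at 20.1 ± 2.23 and 19.6 ± 2.71 (0.04 ± 0.116 SE), and Usp18, which removes the modifier and restrains the type I receptor, at 16.2 ± 2.38 and 14.6 ± 2.41 (0.14 ± 0.132 SE). On the scale of equal totals all 3 were called higher, with log2 fold changes of 0.42 for Isg15, 0.52 for Usp18 and 0.54 for Trim25, beside a median of 0.37 over all transcripts.

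The OAS family, enzymes that make 2'-5' oligoadenylate to activate RNase L and inactive relatives of these, held 3 of the 8 higher genes, at low levels. Oas1a read 5.38, 3.16, 4.66 and 4.97 in KO 1 to KO 4 and 2.64, 1.87, 1.78, 1.89 and 2.43 in WT 1 to WT 5. No WT liver reached the lowest KO liver, KO 2, and the means differed 2.14-fold (log2 fold change 0.82, SE 0.143, limma adjusted p = 0.00191). Oasl2, an OAS-like protein with ubiquitin-like domains, read 3.88, 3.16, 4.44 and 4.26 against 2.01, 1.58, 1.55, 1.92 and 2.04. It was 2.16-fold higher in KO with no overlap (0.8, SE 0.107, adjusted p = 0.000441), and its listed transcript is annotated as a nonsense-mediated decay product. Oas1g read 1.57, 1.32, 2.54 and 1.68 against 0.948, 0.305, 0.481, 1.18 and 0. Every KO value exceeded every WT value and the means differed 3.05-fold (0.85, SE 0.235, adjusted p = 0.019), but the transcript is a retained intron of 769 bases with between 0 and 26.5 reads a library.

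The call of Oas1g was lost with a pseudocount of 0.1 (limma adjusted p = 0.0599) and without KO 3, when its mean fell below the level tested, and it was not made in the authors' deposited table (q = 0.146). Oas1a and Oas1g are near-identical neighbours on chromosome 5 (Oas1a at 120896256 to 120907521, Oas1g at 120876944 to 120879603, both on the minus strand), so the division of reads between them is uncertain. Oasl1 ranged from 1.25 to 4.81 in KO and from 0.00026 to 5.63 in WT and was not called (log2 fold change 0.56, SE 0.508). Oas2 (0.393 ± 0.227 against 0.385 ± 0.228) and Oas3 (0.549 ± 0.192 against 0.385 ± 0.128) were below the level tested.

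The RNA-directed effectors split, with 2 of the 6 tested genes higher and 2 lower. Isg20, an exonuclease that degrades single-stranded RNA, read 3.2, 7.62, 5.56 and 4.85 in KO 1 to KO 4 and 2.59, 1.28, 1.64, 0.464 and 1.16 in WT 1 to WT 5. The KO female was the lowest KO liver and still above every WT liver, and the 3.72-fold difference of means was the largest of the list (log2 fold change 1.39, SE 0.269, limma adjusted p = 0.00325). The lowest library, WT 4, rests on 4.66 reads. Ifit2, which binds AU-rich RNA, read 7.14, 4.18, 8.29 and 5.89 against 4.09, 3.41, 3.32, 2.88 and 3.15. It was 1.89-fold higher (0.73, SE 0.162, adjusted p = 0.0067), with the lowest KO liver KO 2 just above the highest WT liver.

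The other IFIT genes did not follow Ifit2 past the test. Ifit1, which binds viral RNA that lacks cap methylation, read between 7.38 and 13.4 in KO and between 8.73 and 13.7 in WT (log2 fold change -0.01 ± 0.173 SE). Ifit3, of the same family, stood at 17.8 ± 3.55 and 21 ± 4.44 (-0.23, limma adjusted p = 0.34), and its near-identical copy Ifit3b can share its reads.

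Rsad2 (viperin), a radical SAM enzyme that makes a chain-terminating nucleotide, was the most reduced gene of the list. It read 3.43, 2.48, 3.38 and 2.67 in KO 1 to KO 4 and 6.76, 5.84, 5.26, 6.6 and 7.15 in WT 1 to WT 5. Every KO liver lay below every WT liver, and the WT mean was 2.11-fold higher (log2 fold change -0.88, SE 0.112, limma adjusted p = 0.000336). Its transcript is protein coding, with 6 exons over chromosome 12, 26442746 to 26456452, on the minus strand. In the authors' deposited table its log2 coefficient was -1.13 with a q of 3.02e-15.

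Mx2, a dynamin-like GTPase that acts against viruses, read 3.43, 2.1, 2.56 and 2.34 in KO and 3.92, 5.26, 3.17, 5.65 and 5.01 in WT. KO 1 lay above WT 3, so the groups overlapped, and the WT mean was 1.76-fold higher (log2 fold change -0.63, SE 0.16, limma adjusted p = 0.013). The annotation calls this transcript a polymorphic pseudogene. Mx1, whose listed transcript is a decay product, stood at 0.786 ± 0.0621 in KO and 1.03 ± 0.37 in WT and was not tested.

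The membrane effectors include the most abundant transcript of the list, Ifitm3, and 1 of these 4 genes was called. Bst2 (tetherin), which holds budding virus at the cell surface, read 128, 128, 117 and 130 in KO 1 to KO 4 and 186, 183, 202, 190 and 186 in WT 1 to WT 5. Values were tight within each group and did not overlap, with a WT mean 1.51-fold higher (log2 fold change -0.59, SE 0.066, limma adjusted p = 0.000164). Its transcript lies on chromosome 8, 71534255 to 71537456, on the minus strand with 5 exons. The IFITM proteins, which hinder fusion of virus with endosomes, were not called. Ifitm3 stood at 396 ± 47.5 and 470 ± 75.2 (-0.24, adjusted p = 0.178), Ifitm2 at 220 ± 12.8 and 214 ± 26.1 (0.04 ± 0.0991 SE) and Ifitm1 at 12.2 ± 2.85 and 8.9 ± 2.07 (0.42, adjusted p = 0.124). Ifitm3 was called lower with sex as a covariate (-0.34, adjusted p = 0.0381) and Ifitm1 higher without KO 3 (0.58, adjusted p = 0.0366). IFITM genes are near-identical in part, and their reads can be shared.

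Of the 6 interferon-inducible GTPases, which attack vacuoles of intracellular pathogens, 1 was called. Iigp1 read 243, 187, 220 and 204 in KO 1 to KO 4 and 323, 263, 318, 325 and 401 in WT 1 to WT 5. All KO values were below all WT values, and the WT mean was 1.53-fold higher (log2 fold change -0.6, SE 0.125, limma adjusted p = 0.00482). Irgm1, a regulator of that family, stood at 29.5 ± 4.39 and 38.3 ± 7.05 (-0.36, adjusted p = 0.0851), and Igtp at 19.9 ± 5.48 and 32.2 ± 12.4 (-0.63, adjusted p = 0.112). The guanylate-binding proteins Gbp2, Gbp3 and Gbp7 had log2 fold changes of 0.25 ± 0.36, -0.19 ± 0.266 and -0.34 ± 0.246 (SE). Without WT 5, Igtp (-0.78, adjusted p = 0.0468) and Gbp7 (-0.53, adjusted p = 0.0381) were called lower. With males alone Gbp2 was called higher (0.88, adjusted p = 0.0491), while Gbp7 (0.03) and Igtp (-0.25, adjusted p = 0.437) were not called.

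Among the 7 other induced genes 1 was higher and 1 lower. Ifi27l2a, a small hydrophobic protein, read 51.8, 45.5, 66.8 and 67.0 in KO 1 to KO 4 and 22.8, 22.3, 18.6, 20.7 and 24.4 in WT 1 to WT 5. Its groups stood far apart, 2.66-fold in the means, with the smallest adjusted p of the list (log2 fold change 1.36, SE 0.131, limma adjusted p = 6.45e-05). Ifi27, a member of the same family, read 47.5, 34.4, 38.1 and 39.4 against 51.0, 56.1, 56.3, 58.2 and 60.8. It went the other way without overlap, the WT mean being 1.42-fold higher (-0.5, SE 0.0979, adjusted p = 0.00351). Rtp4, a chaperone of surface receptors, was not called (0.04 ± 0.135 SE), nor were Ifi44 (-0.08 ± 0.15), Ifi35 (0.15 ± 0.117), the pro-apoptotic Xaf1 (0.28 ± 0.193) and the mono-ADP-ribosyltransferase Parp14 (0.27 ± 0.153).

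**Figure D3:**
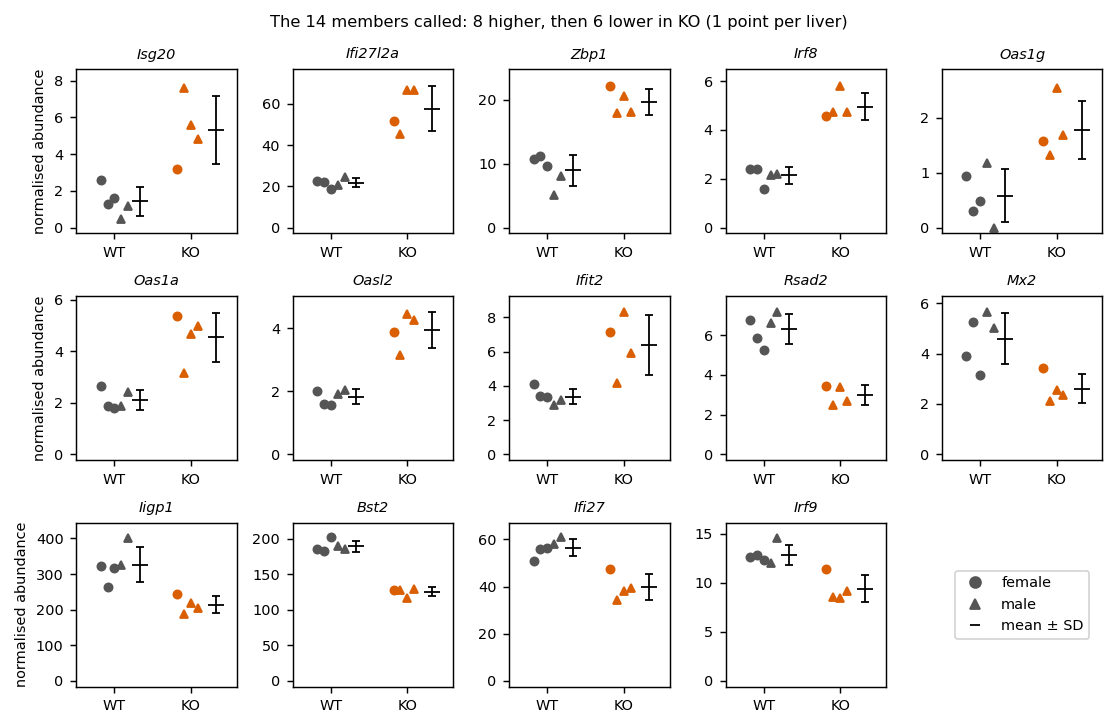
Normalised abundance of the 14 called genes in each liver, WT in grey and KO in orange, circles for females and triangles for males, with the group mean and SD beside the points (5 WT, 4 KO). The first 8 panels show genes higher in KO and the last 6 genes lower in KO, and only Mx2 has KO and WT values that overlap.

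The genes upstream of the list were read from the same fit, beside the background of 35.9% called. None of 21 interferon ligand genes reached the level tested, and 17 of these were listed at 0 in every library, Ifnb1 among them. Ifng lay between 0 and 0.176. Of 10 tested genes of the receptors and the Janus kinase pathway 4 were higher and 1 lower. Il10rb, the chain that type III interferon receptors share with others, stood at 15.5 ± 0.83 in KO and 6.35 ± 0.561 in WT (2.44-fold, limma adjusted p = 7.25e-06). Ifngr1, which binds interferon gamma, stood at 24.8 ± 1.71 and 12.5 ± 1.15 (1.99-fold, adjusted p = 4.22e-05), and its partner Ifngr2 was not called (0.11 ± 0.0928 SE). With equal totals Ifngr2 was called higher (0.48, limma adjusted p = 0.0239), beside a median of 0.37 over all transcripts. The kinases Jak1 (36.0 ± 1.8 against 27.4 ± 1.26, adjusted p = 0.00178) and Tyk2 (5.21 ± 0.597 against 3.97 ± 0.263, adjusted p = 0.0184) were each 1.31-fold higher, Tyk2 losing its call without KO 2 (adjusted p = 0.0512) or KO 3 (0.0589).

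The 2 chains of the type I receptor differed in their calls. Ifnar2 was lower, at 51.0 ± 3.68 in KO and 67.6 ± 6.82 in WT (1.33-fold, limma adjusted p = 0.0075), though on the scale of equal totals its adjusted p was 0.978. Ifnar1 stood at 12.6 ± 1.24 and 10.6 ± 0.601 (adjusted p = 0.0512). It was called higher without KO 4 (0.29, adjusted p = 0.0246) and with a minimum mean of 5 (0.23, adjusted p = 0.0433). With equal totals it was also called higher (0.6, adjusted p = 0.00456), beside a median of 0.37 over all transcripts. Ifnlr1, the chain specific to type III receptors, was below the level tested at 0.902 ± 0.113 and 0.0852 ± 0.0302, and in the authors' deposited table its q was 7.14e-05.

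Of 11 tested negative regulators of the pathway Ptpn1, a phosphatase of Janus kinases, was higher (6.07 ± 0.86 against 4.67 ± 0.27, limma adjusted p = 0.0253) and Pias2, a SUMO ligase, lower (6.26 ± 0.362 against 7.74 ± 0.808, adjusted p = 0.0349). Both calls were lost when single libraries were left out: that of Ptpn1 without KO 3, WT 3 or WT 4 (adjusted p = 0.0532 to 0.0649) and that of Pias2 without any 1 library except WT 2 and WT 5 (0.051 to 0.0924). Pias2 also had the opposite sign on the scale of equal totals. Of 16 tested transcripts for nucleic acid sensing and its adaptors 4 were higher and 2 lower. Zc3hav1, which targets CpG-rich RNA, rose 1.58-fold (16.3 ± 1.43 against 10.3 ± 0.791, adjusted p = 0.000474). Tmem173 (STING) rose 2.4-fold (adjusted p = 0.00235), Tlr7 1.99-fold (0.00894) and Tlr3 1.91-fold (0.0194, and 0.0547 without KO 3). Samhd1, a dNTP hydrolase, was 1.88-fold lower (2.93 ± 0.768 against 5.52 ± 0.881, adjusted p = 0.00488), but its listed transcript is a retained intron of 681 bases with 23.6 to 54.8 reads a library. Mavs, the adaptor of the RNA helicases, was 1.44-fold lower (0.0107, and 0.539 with equal totals). In the authors' deposited table Samhd1 (q = 0.391), Tlr7 (0.489), Tlr3 (0.0783) and Ptpn1 (0.131) were not called.

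A further 61 interferon-stimulated genes outside the list were looked up, of which 54 were tested. Of these 19 were higher and 3 lower (40.7% called). Among all tested transcripts 35.9% were called, 21.4% higher and 14.5% lower. The median log2 fold change was 0.38 in these further genes and 0.03 over all transcripts. The smallest adjusted p belonged to Ifi27l2b, a relative of Ifi27l2a, at 68.0 ± 7.64 in KO and 6.43 ± 1.88 in WT (10.6-fold, limma adjusted p = 2.74e-06). Ly6e, a surface protein that blocks coronavirus fusion, stood at 527 ± 83.7 and 170 ± 21.8 (3.09-fold), the secreted glycoprotein Lgals3bp at 70.3 ± 7.22 and 24.3 ± 3.78 (2.89-fold) and Gbp8 at 6.56 ± 0.61 and 1.32 ± 0.585 (4.97-fold). The lower genes were Parp9 (1.52-fold, adjusted p = 0.00415), its partner Dtx3l (1.37-fold, 0.0243) and Gbp10 (1.66-fold, 0.037). On the minus strand of chromosome 5 the listed Gbp8 transcript spans that of Gbp9 and overlaps that of Gbp4. The listed Gbp10 transcript lies within that of Gbp6, which was not called. How reads were divided among these genes was not tested. The 3 lower calls were lost with equal totals, that of Dtx3l also without KO 1, KO 2, KO 4 or WT 1 (adjusted p = 0.0511 to 0.0672) and that of Gbp10 without KO 2, KO 4, WT 1, WT 2 or WT 4 (0.0638 to 0.0962). With males alone 11 of the upstream and further genes named above lost their calls (limma adjusted p = 0.0649 to 0.273): Ifnar2, Jak1, Tyk2, Ptpn1, Pias2, Tmem173, Tlr7, Tlr3, Parp9, Dtx3l and Gbp10. The calls of Ptpn1 (limma adjusted p = 0.0556) and Gbp10 (0.0778) were also lost with sex as a covariate.

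Libraries of 1 genotype differed from each other across the list. KO 2 was the lowest KO liver for 28 of the 41 tested genes (68.3%), against 22.4% of all tested transcripts. This held for 6 of the 8 higher, 4 of the 6 lower and 18 of the 27 genes not called. KO 1, the only KO female, was the highest KO liver for 18 genes (43.9%, against 25% of all transcripts). Without KO 2 the same 14 genes were called, and the median of the list was 0.13 in place of 0.04.

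Sex differed between the groups, with 1 female of 4 in KO and 3 of 5 in WT. The 3 WT females lay above both WT males without overlap for 13 of the 41 genes (31.7%), against 14.6% of all transcripts, and below them for 4 genes, against 15.1%. For 6 of the 41 genes (14.6%) this held and the KO female was also above every KO male, against 3.74% of all transcripts. Igtp, Gbp2, Gbp3 and Gbp7, 4 of the 6 GTPases, were among the 13 with higher WT females. Igtp read 48.0, 42.2 and 28.7 in the WT females and 22.6 and 19.6 in the WT males, against 25.9 in the KO female and 14, 23.0 and 16.7 in the KO males. The WT males also had the fewest reads, so sex and depth cannot be told apart in WT. With sex as a covariate all 14 calls were kept (33.9% of all transcripts called). With males alone (3 KO, 2 WT) 11 of the 14 were kept, beside 21.2% of all transcripts called, and Oas1a, Oas1g and Ifit2 were not past the test (adjusted p = 0.0528, 0.132 and 0.0742 by limma). Gbp2 was then called higher, and 11 of the 27 genes not called changed sign.

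**Figure D4:**
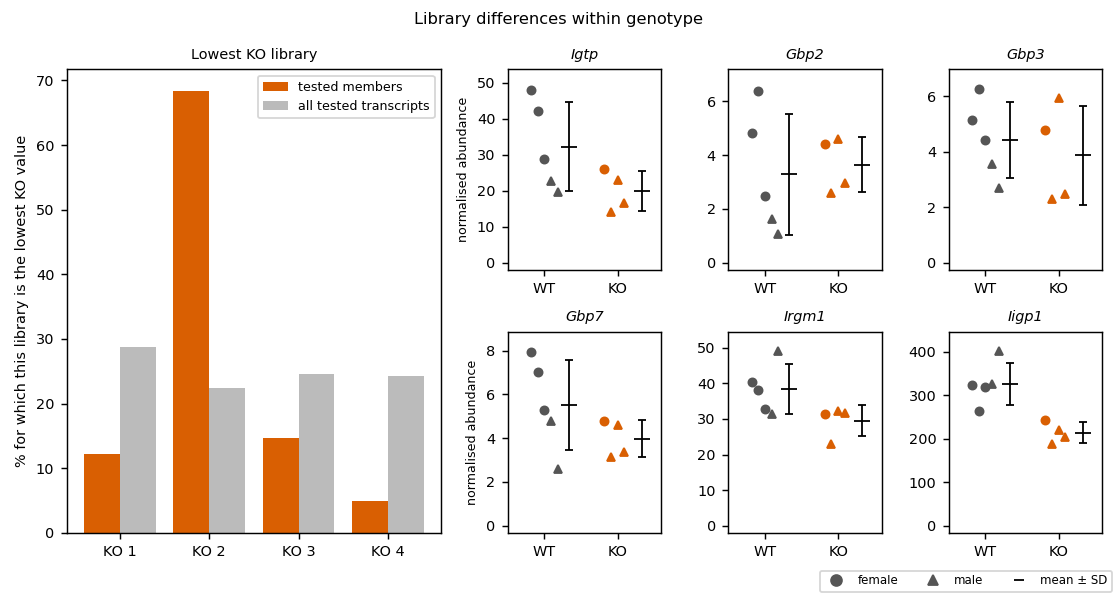
Left, the share of tested genes of the list (orange) and of all tested transcripts (grey) for which each KO library holds the lowest KO value, as a percentage. Right, normalised abundance of the 6 GTPases in each liver with mean and SD (WT grey, KO orange, circles female, triangles male); KO 2 is lowest for 68.3% of the list, and WT females lie above WT males for Igtp, Gbp2, Gbp3 and Gbp7.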

How the data were processed

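PolyA RNA-seq of 4 KO and 5 WT livers was analysed from 1 table of the whole series. The submitters' processing notes name kallisto, sleuth and the build mm10. The sources used here give no versions, transcript set or filters. The authors deposited a normalised signal for each library, which by its values is corrected for transcript length but does not sum to the same total, so it is not TPM. The deposited p-value and q-value come from sleuth. The authors' coefficient (WT minus KO), its error and the mean observation were deposited as natural log values, and the coefficient was turned to KO minus WT in log2. The variance columns, deposited as a score, were not used. No source used here says how 1 transcript per gene was picked, so a change may be of 1 isoform.

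Values were tested as log2(value + 1) with limma 3.58.1 (R 4.3.3; prior variance with a trend, genotype as the only term) for 10950 transcripts with a mean of at least 1, with Benjamini-Hochberg adjustment at 0.05 over all of them, two-sided. One row without a symbol stayed in the fit. The step was tested on simulated data. Depth was recovered from value steps. Only 63.9% to 66.0% of values worth at most 10 reads came within 0.1 of a whole number, so no count test was run. Each animal is 1 replicate, and litters are not given. The highest Pearson r between libraries was 0.981, so none were merged.

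The members and gene lists were chosen with earlier results of these data known. Values in every library are given for each called gene and, in a role group without one, for the gene with the highest mean. Of the pathway lists the text names up to 4 called genes with the smallest adjusted p in each direction, plus Ifnar1, Ifnar2, Ifngr1, Ifngr2, Jak1, Tyk2, Ifnb1 and Ifng, and of the marker lists at most 3. One further gene that the full rule covers, beside those listed, is not reported here. Ifnlr1, Cd14, Spp1, Dcn, Alb, Ly6g, Siglech, Ncr1, Flt3, Batf3, Cldn4 and Cd8a were named outside these rules or after their values were seen. Transcript positions and types are from GENCODE M21 (GRCm38, 1-based), which types 39 of the 44 transcripts as protein coding, and promoters are from RefSeq (GRCm38.p6). Alternatives were other pseudocounts and filters, equal totals, sex, males alone, a replicate block, each library left out and the authors' q.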

Additional observations from a re-analysis of the deposited data

Results flagged for a closer look

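In 5 of 82 groups (the KO or WT values of 1 gene) a single library lay far from the others, by Dixon's criterion at 95%; chance flags about 1 in 20 such groups. KO 3 was the highest KO liver for Irf8 at 5.79, with the others between 4.55 and 4.75, and the lowest for Bst2 at 117, with the others between 128 and 130. KO 2 was the lowest for Irgm1 at 22.9, with the others between 31.4 and 32.1, and for Rtp4 at 13.5, with the others between 18.1 and 18.8. WT 5 was the highest WT liver for Ifi35 at 23.2, with the others between 16.6 and 17.7.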

How the results depend on the processing

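The 14 calls kept their direction under every alternative that tested them. With a minimum mean of 5, 2589 transcripts were called and 2 genes of the list were higher, because 27 of the list were then tested. Males alone gave 2336 called transcripts (5 libraries). Equal totals gave 19 higher and 1 lower gene, and there Pias2 turned to 0.09 (adjusted p = 0.546, limma). Leaving out single libraries gave between 3114 and 4054 called transcripts, 8 to 9 higher and 6 to 8 lower genes, and ended only the call of Oas1g among the 14, which was not tested without KO 3. Same-numbered KO and WT livers correlated at -0.184 to 0.229 in their deviations from the group means. KO 1 correlated best with WT 1, and KO 2, KO 3 and KO 4 each with a WT liver of another number. These values cannot show whether animals were paired. With a replicate block 3557 transcripts, 9 higher and 7 lower genes were called, Mx2 was not (adjusted p = 0.061), and Stat2, Gbp7 and Igtp were; of the pathway genes Tlr3 (0.0533), Pias2 (0.0598), Ptpn1 (0.076) and Dtx3l (0.0939) were not. The 12 genes called by the authors' q were all called by limma in the same direction, and Irf9 and Oas1g were not among these. Depth limits the low transcripts most, such as Oas1g and Isg20.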

Other observations

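Several genes of the list lie near each other on a chromosome (GENCODE M21, GRCm38) and differed in direction or call. Ifi27 (chromosome 12, 103434212 to 103440239, plus strand) was lower in KO and its neighbour Ifi27l2a (103442167 to 103443680, minus strand) higher, with log2 fold changes of -0.5 and 1.36. On chromosome 19 Ifit2 (34550710 to 34576419) was higher at 0.73, while Ifit3 (34583531 to 34588731) stood at -0.23 and Ifit1 (34640871 to 34650009) at -0.01, neither called by limma. Outside the list Cmpk2, a kinase of nucleotides usually induced with Rsad2, stood at 3.22 ± 0.751 in KO and 4.18 ± 0.889 in WT. Its log2 fold change was -0.3 (limma adjusted p = 0.192), beside -0.88 for Rsad2. Cmpk2 was chosen after its value was seen, and differences between neighbours were not tested.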
